A study of Homo sapiens with 30 samples.

Results

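Genes associated with pluripotency were followed through the deposited RNA-seq counts: the transcription factors POU5F1, SOX2 and NANOG, the zinc finger factor ZFP42, the RNA-binding proteins LIN28A and LIN28B, the paired nuclear proteins DPPA2 and DPPA4, the LINE-1 derived protein L1TD1, and TRIML2. These 10 genes were taken by name, matched by Ensembl identifier, from the 60664 genes of the count tables, and each was present in all 30 libraries' tables. They and the gene lists below were chosen with earlier results of these data known, so counts of them called are a description. The 30 poly(A)-selected libraries form 10 groups of 3 replicates, which the study's RNA-seq methods describe as separate cultures. Wild-type K562 cells, a chronic myeloid leukaemia line, and wild-type HCT116 cells, a colorectal carcinoma line, received either a DNMT1 inhibitor (DNMT1i, 10 µM), directed at the maintenance DNA methyltransferase, or 0.1% DMSO over 3 days. HT-CTCF cells, an HCT116 line whose CTCF copies both carry a HaloTag, received DNMT1i (10 µM) or DMSO for 1 day, each with HaloPROTAC3, which degrades the tagged CTCF and was given beforehand and throughout, or without it. Single-cell derived K562 cells with degron tags on the speckle proteins SON and SRRM2, introduced one after the other, received dTAG-13 (500 nM) or DMSO for 6 hr. The HT-CTCF and degron K562 results each describe knock-in cells and not the parental population.

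In pluripotent stem cells and early embryos, POU5F1 (OCT4), SOX2 and NANOG form the core regulatory circuit, and ZFP42 (REX1) is among the best known genes under it. LIN28A and LIN28B block the maturation of let-7 microRNAs, which restrain growth and fetal gene programmes. LIN28B is also a known oncofetal gene in many cancers. DPPA2 and DPPA4 act as a pair in early embryonic chromatin, and several genes of this kind are silenced in somatic cells with DNA methylation at their promoters. L1TD1 derives from a LINE-1 open reading frame and binds RNA. DNA methylation was not measured in these libraries.

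In hg38 (GENCODE 44) the core factors lie at chr6:31164337-31180731 (POU5F1, ENSG00000204531, minus strand), chr3:181711925-181714436 (SOX2, ENSG00000181449, plus strand) and chr12:7787794-7799146 (NANOG, ENSG00000111704, plus strand). ZFP42 (ENSG00000179059, plus strand) at chr4:187995771-188005046 and TRIML2 (ENSG00000179046, minus strand) at chr4:188091272-188109603 are neighbours. DPPA2 (ENSG00000163530) at chr3:109293788-109316517 and DPPA4 (ENSG00000121570) at chr3:109326144-109337546 are both on the minus strand. LIN28A (ENSG00000131914) at chr1:26410817-26429728, L1TD1 (ENSG00000240563) at chr1:62194849-62212328 and LIN28B (ENSG00000187772) at chr6:104936616-105083332 are on the plus strand. POU5F1 overlaps TCF19 on the opposite strand.

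Sequencing depth ranged between 4243092 and 21228534 gene-assigned counts per library, lowest in the 12 HT-CTCF libraries (4243092 to 9407430). Levels are given as gene counts scaled to the library's total of gene-assigned counts (CPM), and a total of 3 counts over a group of 3 libraries, the floor used for bounds, corresponded to 0.0558 CPM in HCT116 DMSO. The cell line labels were checked with 10 erythroid and 10 epithelial marker genes: the erythroid list summed to 510 to 554 CPM in the 6 wild-type K562 libraries and to 10.9 to 17.5 CPM in the 6 wild-type HCT116 libraries, and the epithelial list summed to 432 to 641 CPM in K562 and 3670 to 4540 CPM in HCT116. Of the 10 epithelial genes, 4 in K562 DMSO and 6 in K562 DNMT1i had a mean of at least 1 CPM, against 7 and 8 in HCT116. The carcinoembryonic antigen gene CEACAM5 was at 0 in both K562 groups. It was also at 0 in HT-CTCF DNMT1i with HaloPROTAC3 and HT-CTCF DMSO without it, so it did not separate the lines. A call needed a change of more than 0.5 on the log2 scale together with an adjusted p under 0.05 (edgeR quasi-likelihood test, Benjamini-Hochberg adjustment over all genes tested), and standard errors (SE) of fold changes are from the same fit.

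The sequences around the start sites matter here because DNMT1 maintains methylation at CpG sites. RefSeq start-site windows (GRCh38.p14, 250 bases before and 50 after each start) were at hand for 8 of the 10 genes, and 10 windows in all, each with the same letters as hg38. A median promoter among 35116 windows held 14 CpG sites. The ZFP42 window (chr4:187995521-187995820, plus strand) held 24, more than 66.1% of all windows, while the DPPA2 window (chr3:109316468-109316767, minus strand) held 7 and was above 36.8% of them. They are shown with every CpG in capitals, because these genes gave a very large and a mid-sized induced level:
ZFP42: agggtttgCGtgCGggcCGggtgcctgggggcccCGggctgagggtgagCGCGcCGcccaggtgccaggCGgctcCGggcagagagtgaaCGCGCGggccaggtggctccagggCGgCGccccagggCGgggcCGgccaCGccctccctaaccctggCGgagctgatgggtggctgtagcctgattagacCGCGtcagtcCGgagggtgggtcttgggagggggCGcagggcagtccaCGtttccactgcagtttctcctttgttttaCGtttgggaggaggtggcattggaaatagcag
DPPA2: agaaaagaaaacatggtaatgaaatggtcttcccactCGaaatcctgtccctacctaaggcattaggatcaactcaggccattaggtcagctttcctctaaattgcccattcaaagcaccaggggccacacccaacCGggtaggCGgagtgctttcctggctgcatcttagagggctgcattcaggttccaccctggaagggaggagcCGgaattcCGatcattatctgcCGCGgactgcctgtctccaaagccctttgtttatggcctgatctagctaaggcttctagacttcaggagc
The remaining windows of single-start genes held 5 (DPPA4 and NANOG), 14 (L1TD1) and 20 (SOX2) CpG sites. TRIML2 has a window at each of its starts, with 6 sites at the outer start and 9 at the inner one. The members that changed in HCT116 thus included windows on both sides of the median, between 5 and 37 sites counting LIN28B below. The octamer ATGCAAAT, a POU factor motif searched on both strands, was in none of the 10 windows and in 1.77% of all windows, and the E-box CACGTG was in 1 of them, at the downstream LIN28B start, and in 7.26% of all windows.

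At baseline 2 of the members, LIN28B and TRIML2, were called between the lines, in opposite directions. LIN28B was at 148, 147 and 104 CPM in the K562 DMSO libraries, against 0.519, 0.428 and 0.394 CPM in the HCT116 DMSO libraries, a log2 difference of 8.18 ± 0.19 (SE, K562 minus HCT116, edgeR adjusted p = 2.31e-18). TRIML2, a member of the tripartite motif-like family, ran the other way, with 0, 1 and 2 counts in the K562 DMSO libraries and 28, 44 and 45 counts in HCT116 DMSO, a ratio of 0.0253 (95% counting interval 0.00513 to 0.0756). Of the 17237 genes tested, 36.9% were called higher in K562 and 39.6% lower, so calls of this kind were common. ZFP42, DPPA2, DPPA4 and L1TD1 were also tested and were not called, with at most 2 counts in any wild-type DMSO library of either line. LIN28A had 0, 1 and 2 counts in K562 DMSO and 3, 1 and 4 in HCT116 DMSO, and was too low to be tested. SOX2, POU5F1 and NANOG had a total of 2, 0 and 0 counts in the HCT116 DMSO group, and 0 in the K562 DMSO group.

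**Figure D1:**
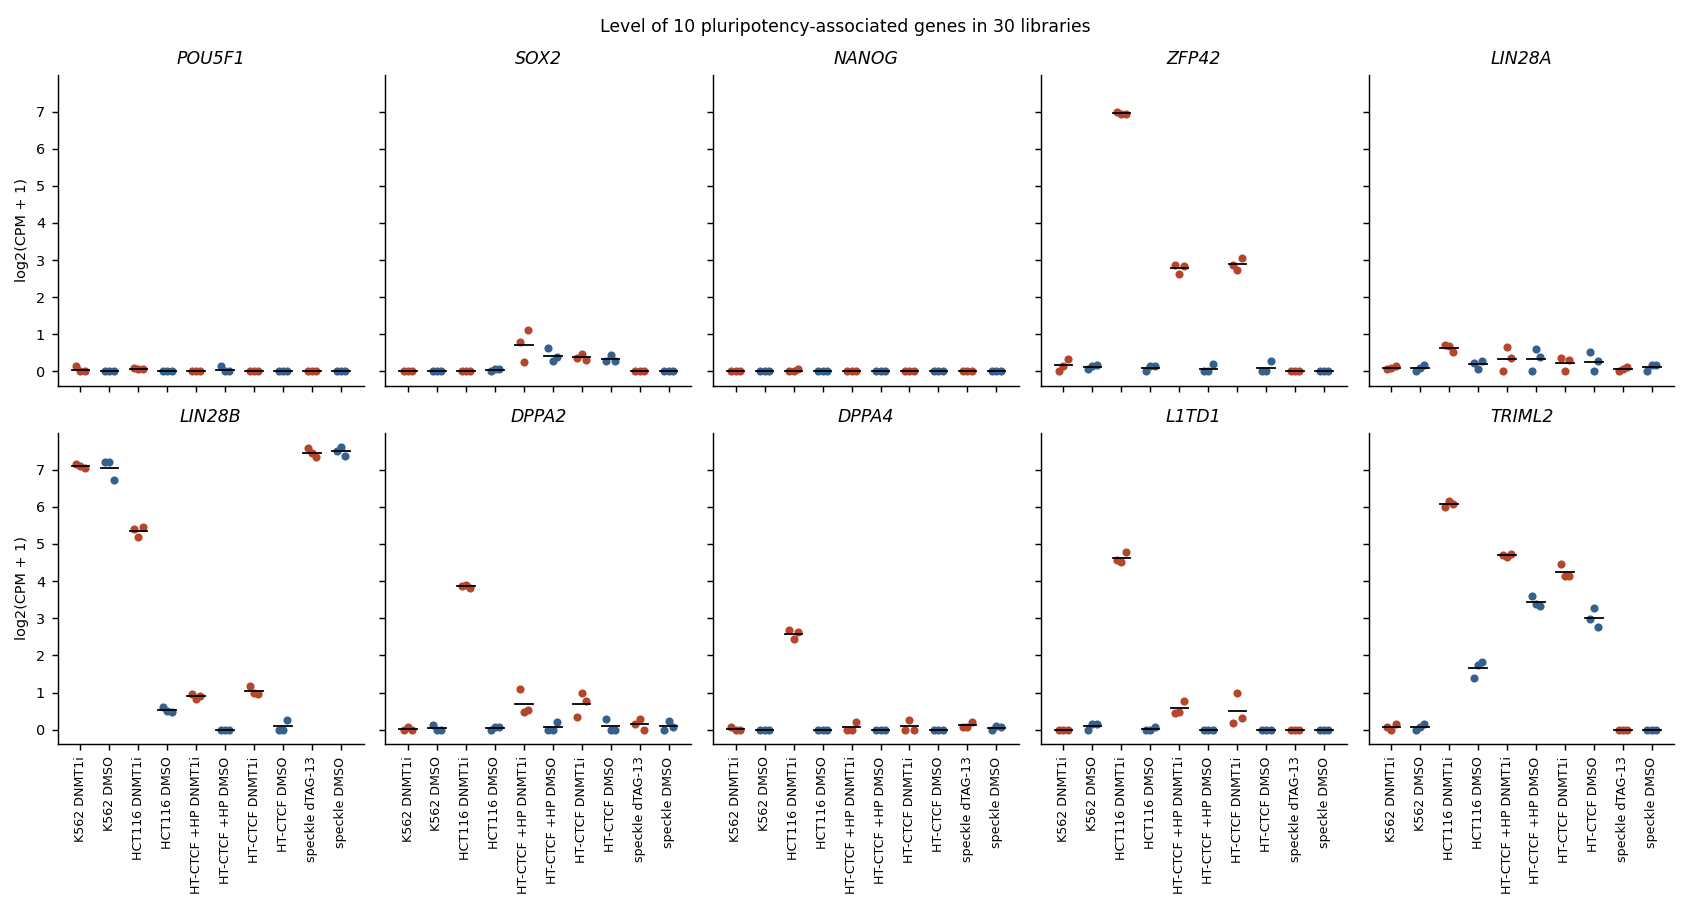
Level of each gene in the 30 libraries, as log2(CPM + 1). Each point is a library, each black bar a mean of 3 libraries, red points are the DNMT1i or dTAG-13 groups and blue points the DMSO groups, and +HP stands for HaloPROTAC3. A set of 6 genes stands high in HCT116 DNMT1i, LIN28B is high in every K562 group, and POU5F1, NANOG and SOX2 stay near the bottom of the axis in every wild-type library.

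In wild-type HCT116 cells 3 days of DNMT1i raised 6 of the 10 genes, and ZFP42 reached the highest level of them. Its counts were 2135, 2567 and 2292 in the DNMT1i libraries, against 0, 2 and 2 in DMSO, or 125, 121 and 122 CPM against at most 0.113 CPM. No DNMT1i library came near a DMSO library, and the log2 fold change was 10.46 ± 0.20 (SE, n = 3 each, edgeR adjusted p = 2.8e-19). L1TD1 had 391, 467 and 496 counts in the DNMT1i libraries, against 0, 0 and 1 count in DMSO, which is a ratio of 1280 (95% counting interval 229 to 50500; edgeR adjusted p = 1.06e-15). DPPA2 had 233, 294 and 246 counts in DNMT1i, against 0, 1 and 1 in DMSO, a ratio of 364 (95% counting interval 101 to 3010; edgeR adjusted p = 1.06e-14). Its partner DPPA4, which lies 9627 bases away on chromosome 3, had 92, 95 and 97 counts in DNMT1i, against 0 in every DMSO library, and so was at least 89.3-fold higher (3 counts over the DMSO group; edgeR adjusted p = 6.65e-11). Each of these 4 genes was near or at 0 in DMSO and passed the filter on low counts through the DNMT1i libraries alone.

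LIN28B and TRIML2 started from a measurable level. LIN28B was at 41, 35.5 and 43.3 CPM in the DNMT1i libraries, against 0.519, 0.428 and 0.394 CPM in DMSO, a log2 fold change of 6.36 ± 0.18 (SE, edgeR adjusted p = 1.32e-16). TRIML2 was at 62.5, 70.5 and 66.3 CPM in DNMT1i, against 1.61, 2.36 and 2.54 CPM in DMSO, a log2 fold change of 4.82 ± 0.13 (SE, edgeR adjusted p = 5.09e-17). In both, the lowest DNMT1i library was above the highest DMSO library. The 6 called genes are to be read beside the background of this comparison, where 23.6% of the 15885 genes tested were called higher. Of the 6, TRIML2 alone had DMSO libraries above the filter's cutoff of 0.549 CPM, so the other 5 had to differ in order to be tested and their number is a description. The calls of these 6 genes were kept under each of the 10 alternatives tried, which for those 5 carries the same limit and adds no support.

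The other 4 members stayed at a few counts. LIN28A, the paralogue of LIN28B, had 11, 13 and 8 counts in the HCT116 DNMT1i libraries, against 3, 1 and 4 in DMSO, so the groups did not overlap, and the ratio was 3.77 (95% counting interval 1.7 to 9.47). It did not pass the filter on low counts, and without the filter its log2 fold change was 1.75 ± 0.55 (SE, edgeR adjusted p = 0.00541). POU5F1 had 1 count in each DNMT1i library, against 0 in each DMSO library. NANOG had 0, 0 and 1 count in DNMT1i, against 0 in DMSO. SOX2 was at 0 in DNMT1i, against 0, 1 and 1 count in DMSO. For POU5F1, NANOG and SOX2 both groups were at or under the floor of 3 counts, so no fold is given and no difference was detectable at this depth. The long noncoding RNA SOX2-OT, which spans SOX2, had 11 counts in the DNMT1i group, against 16 in DMSO.

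Levels per kilobase were scaled to all annotated exon of a gene, read or not, which limits how genes can be set side by side. On this scale ZFP42 was first in HCT116 DNMT1i cells at 46.3 ± 0.785 CPM per kb (SD, n = 3). TRIML2 followed at 21.8 ± 1.3, DPPA2 at 9.79 ± 0.263, LIN28B at 6.72 ± 0.679, L1TD1 at 6.4 ± 0.64 and DPPA4 at 1 ± 0.0958 CPM per kb. LIN28B and L1TD1 did not differ beyond their spread in this order, and the other neighbours did. DPPA2 and DPPA4 were unequal in these cells, with 2.72 times as many counts for DPPA2 over the 3 libraries. Reads covered all 6 exon bins of ZFP42, all 9 of DPPA2, all 5 of L1TD1, all 20 of TRIML2 and 22 of 23 of DPPA4 in the HCT116 DNMT1i group, where an exon bin is a stretch of exon shared by the same set of annotated transcripts. Bins 7 and 8 of DPPA4, 887 and 548 bases long, held 1 read each in this group, so its level per kilobase is set low.

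In K562 cells the same treatment gave no called member. LIN28B was the only member with enough counts to be tested, at 140, 136 and 132 CPM in the DNMT1i libraries, against 148, 147 and 104 CPM in DMSO. The groups overlapped, and the log2 fold change was -0.01 ± 0.12 (SE, edgeR adjusted p = 0.984), where 5.72% of 13726 genes were called higher. ZFP42 had 0, 2 and 5 counts in K562 DNMT1i, against 1, 2 and 2 in DMSO. TRIML2 had 1, 0 and 2 counts in DNMT1i, against 0, 1 and 2 in DMSO. DPPA2, DPPA4, POU5F1 and LIN28A had at most 2 counts in any of these 6 libraries, and NANOG and SOX2 had 0 in all 6. L1TD1 was at 0 in DNMT1i, against 0, 2 and 2 counts in DMSO.

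Whether the lines responded differently was tested over the 12 wild-type libraries, as K562 response minus HCT116 response. The K562 response was lower for LIN28B (log2 difference -6.35 ± 0.24, SE, edgeR adjusted p = 2.43e-13) and for ZFP42 (-10.07 ± 1.43, SE, edgeR adjusted p = 2.67e-05). It was also called lower for L1TD1, DPPA2 and TRIML2, where 15.7% of 17237 genes were called lower. ZFP42, L1TD1 and DPPA2 had 0 to 7 counts in each K562 group and entered this fit through the HCT116 DNMT1i libraries, as TRIML2 entered it through the HCT116 libraries, so how many members were called is no result. DPPA4 gave no usable estimate in that fit, because its K562 DMSO and HCT116 DMSO libraries were all at 0. The calls for DPPA2 and TRIML2 rested on single K562 DMSO libraries: without K562 DMSO replicate 1 the DPPA2 difference was -6.31 (adjusted p = 1), and without K562 DMSO replicate 3 the TRIML2 difference was -3.97 (adjusted p = 0.168). Over all alternatives their adjusted p ranged between 9.47e-06 and 1 for DPPA2 and between 0.000348 and 0.168 for TRIML2. After DNMT1i, HCT116 LIN28B reached 29.4% of the mean CPM that K562 cells had with DNMT1i.

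**Figure D2:**
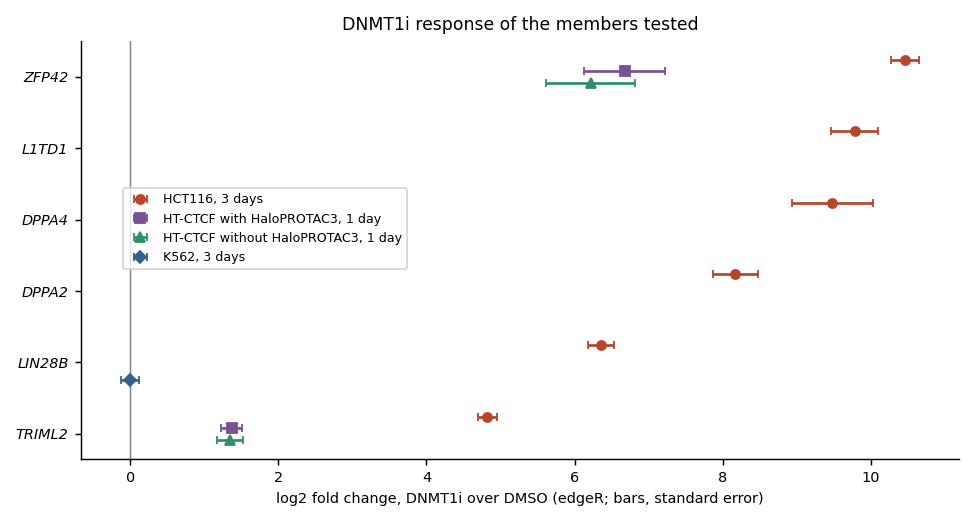
Log2 fold change, DNMT1i over DMSO, of each member that passed the filter on low counts in wild-type HCT116, HT-CTCF with and without HaloPROTAC3, and wild-type K562 cells; points are edgeR estimates and bars standard errors. ZFP42, L1TD1, DPPA4 and DPPA2 lie beyond 8 in HCT116 at 3 days (with DMSO libraries at or near 0, so these estimates rest on few counts), and LIN28B in K562 lies at -0.01.

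The K562 gene count of LIN28B did not show what its exon bins showed. LIN28B lies on the plus strand of chromosome 6 (104936616 to 105083332, hg38) and has 10 exon bins. GENCODE 44 gives it 3 transcripts that share bins 6 to 8 and differ in their starts. LIN28B-202 and LIN28B-203 begin upstream and both use bin 4 (chr6:104950461-104950509), whereas LIN28B-201 begins at bin 5 (chr6:104957107-104957260). Bin 4 starts 6646 bases before bin 5 and is read here as the mark of an upstream start, and it is shown because the reads in it carry the finding:
LIN28B bin 4: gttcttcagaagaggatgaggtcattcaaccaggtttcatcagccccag
In K562 cells bin 4 had 29, 32 and 24 reads in the DNMT1i libraries, against 0, 1 and 0 in DMSO, an edgeR log2 fold change of 5.86 ± 0.62 (SE, adjusted p = 0.000181 over 189372 bins), a value that depends on the prior count since DMSO held 1 read. In HCT116 cells it had 14, 15 and 21 reads in DNMT1i, against 0 in every DMSO library (adjusted p = 3.04e-06 over 204714 bins). In the degron K562 libraries it had 0, 0 and 0 reads in dTAG-13, against 1, 0 and 1 in DMSO. Upstream reads were thus seen in each of the 6 DNMT1i libraries, and at most 1 read was seen in any of the 12 others.

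Bin 2, the second exon of LIN28B-202 (chr6:104936850-104937116, starting 20257 bases before bin 5), moved with bin 4. It had 31, 20 and 19 reads in K562 DNMT1i, against 0 in every K562 DMSO library (adjusted p = 0.000658), and 19, 21 and 22 reads in HCT116 DNMT1i, against 0 in HCT116 DMSO (adjusted p = 4.8e-07). Bin 3, the first exon of LIN28B-203, had 4, 5 and 3 reads in K562 DNMT1i, against 0 in DMSO, and 1, 0 and 1 in HCT116 DNMT1i, against 0 in DMSO, and was too low to be tested. In bins 2 and 4 of K562, 2 of the 8 LIN28B bins tested were called higher, where 0.908% of all bins tested were, and in HCT116 all 7 LIN28B bins tested were, where 14.5% of all bins were. These bins passed the filter on low counts through the DNMT1i libraries, and the bin test was chosen after the bin counts were seen. Leaving out each K562 library in turn kept both calls, with edgeR adjusted p between 8.87e-06 and 0.00698 for bin 2 and between 3.92e-06 and 0.00189 for bin 4. These fits held the same selected bins, so they show only that no single library carried the calls. Bins 2 and 3 overlap the antisense gene LIN28B-AS1, and the counting's strand setting was not stated in any source at hand. LIN28B-AS1 itself had 0 counts in K562 DNMT1i, against 1 in K562 DMSO, and 1 in HCT116 DNMT1i, against 0 in HCT116 DMSO, and bin 4 lies outside it. The letters of bin 2 include Alu-like repeat sequence, so reads there are harder to place than those in bin 4.

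Bin 5, the first exon of LIN28B-201, separated the lines. K562 had 22, 37 and 34 reads in DNMT1i, against 62, 38 and 40 in DMSO, so the groups did not overlap, with a log2 fold change of -0.68 ± 0.25 (SE, edgeR) that did not pass the adjusted threshold (adjusted p = 0.363). HCT116 had 1, 0 and 0 reads in DNMT1i, against 0 in DMSO. Of the reads in bins 4 and 5 together, bin 4 took 85 of 178 in K562 DNMT1i (47.8%, 95% exact binomial interval 40.2% to 55.4%), against 1 of 141 in K562 DMSO (0.709%, 0.018% to 3.89%). It took 50 of 51 in HCT116 DNMT1i (98%, 89.6% to 100%), and HCT116 DMSO had no read in either bin. Downstream, bins 6 to 10 had 3033, 2614 and 2904 reads in K562 DNMT1i, against 3472, 2787 and 1925 in K562 DMSO, and each of them had an adjusted p above 0.8 in K562. In HCT116 bins 6 to 10 had 795, 849 and 912 reads in DNMT1i, against 11, 9 and 7 in DMSO. The intervals cover counting error only, since bins share reads that cross exon junctions and bin lengths differ.

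**Figure D3:**
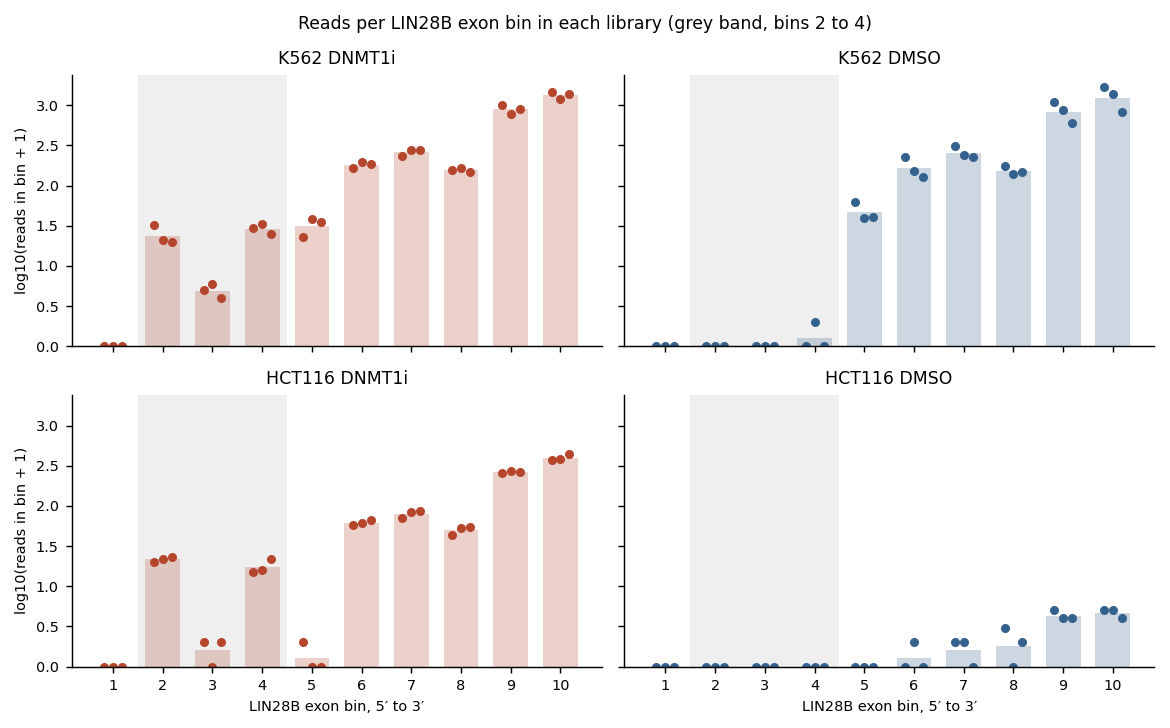
Reads in each of the 10 LIN28B exon bins, as log10(reads + 1), in DNMT1i libraries (left) and DMSO libraries (right) of K562 (top) and HCT116 (bottom). Points are libraries and bars the mean of the 3 points. In the grey band, bins 2 and 4 hold reads in all 6 DNMT1i libraries, and the 6 DMSO libraries hold a single read, in bin 4.

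The annotated first exons themselves held few reads on the upstream side. Bin 1, the first exon of LIN28B-202 and 34 bases long, had 0 reads in all 6 DNMT1i libraries and all 6 DMSO libraries of wild-type cells, and bin 3 had 12 reads over the K562 DNMT1i group and 2 over the HCT116 DNMT1i group, against 0 in both DMSO groups. The reads that differed lay in bins 2 and 4, which are internal exons, so where these transcripts began was not settled by the bins. The upstream RefSeq window (chr6:104940715-104941014, plus strand, around a RefSeq start inside bin 3) held 37 CpG sites, more than 88.7% of all windows, and the window at the LIN28B-201 start (chr6:104956857-104957156, plus strand) held 8, more than 39.3% of them. Both are shown with CpG sites in capitals, since they are the LIN28B starts in the table on either side of bin 4:
LIN28B upstream: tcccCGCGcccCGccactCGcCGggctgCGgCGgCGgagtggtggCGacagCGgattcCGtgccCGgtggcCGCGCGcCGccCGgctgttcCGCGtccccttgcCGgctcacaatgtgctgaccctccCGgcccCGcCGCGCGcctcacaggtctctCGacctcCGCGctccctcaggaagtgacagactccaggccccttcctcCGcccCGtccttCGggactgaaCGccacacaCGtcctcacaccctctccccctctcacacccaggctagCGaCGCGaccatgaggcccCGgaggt
LIN28B downstream: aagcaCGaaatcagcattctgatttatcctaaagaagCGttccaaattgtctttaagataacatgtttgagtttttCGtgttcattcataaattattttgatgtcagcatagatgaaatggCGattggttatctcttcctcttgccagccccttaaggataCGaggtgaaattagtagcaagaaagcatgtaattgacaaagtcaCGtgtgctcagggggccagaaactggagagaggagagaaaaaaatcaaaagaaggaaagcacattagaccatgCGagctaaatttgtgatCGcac
The start of LIN28B-202, whose second exon is bin 2, lies farther upstream and has no window in the table used.

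HT-CTCF cells gave a view of the first day of treatment. ZFP42 had 46, 29 and 31 counts with DNMT1i in cells without HaloPROTAC3, against 0, 0 and 1 count with DMSO, a ratio of 96.9 (95% counting interval 17 to 3860; edgeR adjusted p = 1.97e-08). TRIML2 was at 21.2, 16.5 and 16.7 CPM with DNMT1i, against 6.87, 8.75 and 5.84 CPM with DMSO, a log2 fold change of 1.35 ± 0.18 (SE, edgeR adjusted p = 6.46e-06). Neither gene's groups overlapped. These were the 2 members tested, and 1.34% of the 12690 genes tested were called higher. ZFP42 passed the filter through the DNMT1i libraries, as in wild-type HCT116.

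Several of the remaining members had a few counts in nearly every 1 day DNMT1i library and almost none in DMSO. LIN28B had 9, 5 and 4 counts with DNMT1i without HaloPROTAC3, against 0, 0 and 1 with DMSO, and 5, 4 and 6 counts with DNMT1i and HaloPROTAC3, against 0 in the 3 DMSO libraries. L1TD1 had 1, 5 and 1 counts with DNMT1i without HaloPROTAC3, against 0 with DMSO, and 2, 2 and 5 counts with DNMT1i and HaloPROTAC3, against 0 with DMSO. DPPA2 had 2, 5 and 3 counts with DNMT1i without HaloPROTAC3, against 1, 0 and 0 with DMSO, and 6, 2 and 3 with DNMT1i and HaloPROTAC3, against 0, 0 and 1 with DMSO. The groups of these 3 genes did not overlap in either CTCF state, at the least by 0.275 against 0.215 CPM (DPPA2 without HaloPROTAC3). The share of all genes with groups apart was not computed, so this is a description of low counts. None of the 3 could be tested with the filter on low counts. In a fit without the filter, LIN28B was called in both CTCF states (edgeR adjusted p = 0.0345 without and 0.000681 with HaloPROTAC3), L1TD1 with HaloPROTAC3 (adjusted p = 0.0389, and 0.301 without), and DPPA2 in neither (0.383 without and 0.0605 with HaloPROTAC3). DPPA4 had 1 count in each DNMT1i group, against 0 in each DMSO group.

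SOX2 was detected in more of the HT-CTCF libraries than of the wild-type ones. With HaloPROTAC3 it had 4, 1 and 8 counts in DNMT1i, against 5, 2 and 2 in DMSO, and without HaloPROTAC3 it had 2, 2 and 1 in DNMT1i, against 1, 2 and 1 in DMSO. All 12 HT-CTCF libraries held at least 1 SOX2 count, whereas 2 of the 12 wild-type libraries did, with 1 count each. The ratio of DNMT1i to DMSO was 2.09 with HaloPROTAC3 (95% counting interval 0.828 to 5.55) and 1.14 without it (0.246 to 5.76), and the groups overlapped in both. LIN28A also had 0 to 5 counts per HT-CTCF library, with ranges that overlapped between DNMT1i and DMSO in both CTCF states. POU5F1 had a single count in the 12 libraries, in DMSO with HaloPROTAC3, and NANOG had none.

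With CTCF degraded, ZFP42 and TRIML2 were again called higher with DNMT1i. ZFP42 had 34, 26 and 43 counts with DNMT1i, against 0, 0 and 1 with DMSO, a ratio of 149 (95% counting interval 26.2 to 5950; edgeR adjusted p = 6.32e-10). TRIML2 was at 25, 24 and 25.6 CPM with DNMT1i, against 11.1, 9.46 and 9.02 CPM with DMSO, a log2 fold change of 1.37 ± 0.14 (SE, edgeR adjusted p = 1.96e-07). In this comparison 1.08% of genes were called higher. The interaction, the response with HaloPROTAC3 minus the response without it, was 0.02 ± 0.24 (SE, adjusted p = 0.986) for TRIML2 and 0.46 ± 1.46 (SE, adjusted p = 0.923) for ZFP42, and 0.268% of the 12690 genes were called in either direction. The ZFP42 difference had DMSO groups of 1 count each and ran between -1.61 and 2.04 over the alternatives, and a p that misses the threshold does not show that the responses were alike.

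HaloPROTAC3 itself went with a small difference in TRIML2. Under DNMT1i TRIML2 was at 25, 24 and 25.6 CPM with HaloPROTAC3, against 21.2, 16.5 and 16.7 CPM without it, a log2 fold change of 0.54 ± 0.14 (SE, edgeR adjusted p = 0.00536), where 5.28% of genes were called higher. In DMSO it was at 11.1, 9.46 and 9.02 CPM with HaloPROTAC3, against 6.87, 8.75 and 5.84 CPM without it, a log2 fold change of 0.52 ± 0.18 (SE, edgeR adjusted p = 0.0468), where 4.67% of genes were called higher. The ranges did not overlap in either state, but the difference in DMSO sat at the threshold and was lost under 9 of 11 alternatives, with adjusted p up to 0.203. Under DNMT1i the fold change fell under the limit of 0.5 without HaloPROTAC3 DNMT1i replicate 3 (0.48), and without replicate 2 or replicate 3 of DNMT1i without HaloPROTAC3 (0.46 and 0.48), with adjusted p between 0.00335 and 0.0447 over all 11 alternatives. ZFP42 under DNMT1i was at 6.35, 5.12 and 6.21 CPM with HaloPROTAC3, against 6.33, 5.7 and 7.31 CPM without it, with a log2 fold change of -0.01 ± 0.25 (SE, edgeR adjusted p = 0.997).

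**Figure D4:**
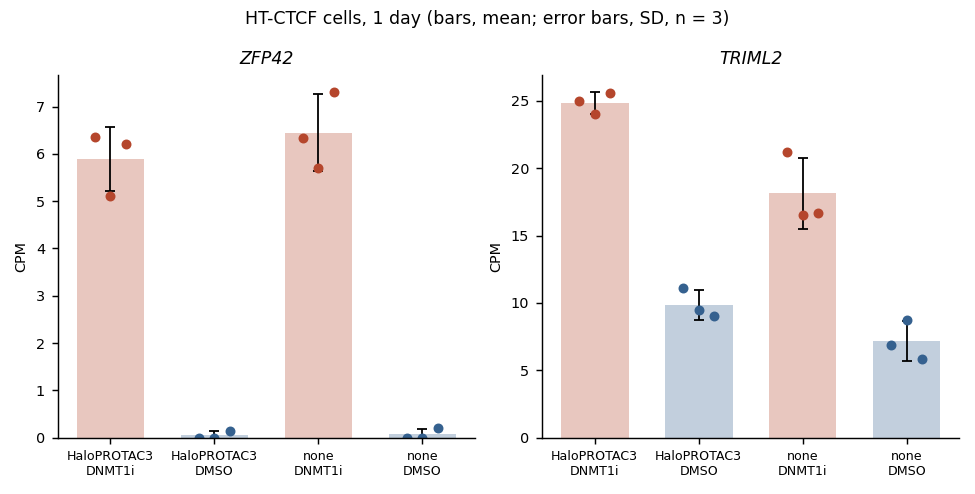
ZFP42 and TRIML2 in HT-CTCF cells after 1 day, in CPM. Bars are means of 3 libraries, error bars SD and points libraries; red marks DNMT1i and blue DMSO, with HaloPROTAC3 in the left pair and without it in the right pair. TRIML2 is higher with DNMT1i in both pairs and has a measurable DMSO level, whereas ZFP42 in DMSO stays at or under 0.208 CPM.

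The 3 day response of wild-type HCT116 cells was set against the 1 day response of HT-CTCF cells without HaloPROTAC3, with day, knock-in, read length and experiment differing together, so their parts cannot be told apart. The TRIML2 response was larger in the 3 day set, by 3.47 ± 0.25 on the log2 scale (SE, edgeR adjusted p = 2.33e-11), and it was the only member called, where 14.8% of 15782 genes were called higher. The baselines of TRIML2 differed as well, at 2.17 ± 0.489 CPM in wild-type HCT116 DMSO cells and 7.15 ± 1.47 CPM in HT-CTCF DMSO cells without HaloPROTAC3 (SD, n = 3 each). After DNMT1i TRIML2 at 1 day had 27.3% of its 3 day mean CPM, and ZFP42 had 5.25%. ZFP42 gave a difference of 4.01 ± 2.03 (SE, edgeR adjusted p = 0.151), with its baselines at 0 to 2 counts. DESeq2 called ZFP42 (adjusted p = 0.0163), DPPA2 (0.00768), DPPA4 (0.00131) and L1TD1 (0.00166) higher in the 3 day set. Each of these genes had at most 2 counts in any DMSO library of the comparison and rested on its DNMT1i libraries. The DESeq2 calls are therefore a description and add no support. In edgeR L1TD1 had an SE of 43.33, and DPPA4, at 0 in every DMSO library, gave no usable estimate.

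Degradation of SON and SRRM2 did not change a member beyond the threshold. LIN28B was at 189, 175 and 161 CPM in dTAG-13 libraries, against 181, 195 and 165 CPM in DMSO, a log2 fold change of -0.04 ± 0.08 (SE, edgeR adjusted p = 0.792), and the groups overlapped. It was the only member tested, where 4.63% of 14104 genes were called in either direction at a log2 fold change beyond 0.25. The same-numbered libraries of this experiment deviated together in part, although dTAG-13 replicate 1 was closer to DMSO replicate 2. With the replicate number as a block 837 genes were called higher and 1110 lower, against 220 and 433 without it. LIN28B stayed at -0.04 (edgeR adjusted p = 0.577). ZFP42, L1TD1, TRIML2, SOX2, POU5F1 and NANOG had no count in any of the 6 libraries. DPPA2 had 2, 4 and 0 counts in dTAG-13, against 0, 3 and 1 in DMSO, and DPPA4 had 1, 1 and 3, against 0, 1 and 1. LIN28A had 0, 1 and 2 counts in dTAG-13, against 0, 2 and 2 in DMSO.

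The genes next to the members went both ways in HCT116, where 23.6% of all genes tested were called higher and 15.6% lower. ZFP42 and TRIML2 are nearest protein-coding neighbours on chromosome 4, 86226 bases apart, and DPPA2 and DPPA4 are neighbours on chromosome 3, and all 4 were called higher in HCT116. On the far side of ZFP42, 1269049 bases away, FAT1, a cadherin, was lower in HCT116 with DNMT1i, with a log2 fold change of -0.64 ± 0.08 (SE, edgeR adjusted p = 7.89e-07). NECTIN3, 1732525 bases from DPPA4, was lower too (-0.50 ± 0.08, SE, edgeR adjusted p = 1.11e-05). TRIML1, 29838 bases beyond TRIML2, had 0, 3 and 3 counts in HCT116 DNMT1i, against 0 in DMSO. C3orf85 beside DPPA2 had 8 counts over the HCT116 DNMT1i group, and KANK4 beside L1TD1 had 5, against 0 in DMSO for each. TRIML1, C3orf85 and KANK4 were too low to be tested. Beside LIN28B, BVES was higher in HCT116 (log2 fold change 1.55 ± 0.14, SE, edgeR adjusted p = 1.05e-08), and HACE1, a ubiquitin ligase, was at -0.21 ± 0.10 (SE, adjusted p = 0.0743). PATJ, a polarity protein gene 16174 bases from L1TD1, was called higher in K562 (2.46 ± 0.56, SE, edgeR adjusted p = 0.0201), where L1TD1 was not detected with DNMT1i, and had 0.16 ± 0.07 (SE, adjusted p = 0.0653) in HCT116. In K562 PATJ had 54 counts over the DNMT1i group, against 9 in DMSO, and passed the filter on low counts through the DNMT1i libraries. There 5.72% of 13726 genes were called higher. Beside the silent SOX2, at 722151 bases, DNAJC19 was lower in HCT116 (-0.60 ± 0.10, SE, edgeR adjusted p = 2.06e-05).

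Other genes of the early embryo were described from a list of 48 names, of which 47 were in the count tables. In HCT116, 25 of them could be tested, 14 were called higher and none lower, where 23.6% of all genes tested were called higher and 15.6% lower, and the list's median was 0.60 on the log2 scale, where all genes tested had 0.02. By name, SALL4, a partner of the core factors, was at 3.02 ± 0.4 CPM in DNMT1i and 0.408 ± 0.111 CPM in DMSO (SD, n = 3 each), a log2 fold change of 2.77 ± 0.28 (SE, edgeR adjusted p = 4.14e-08). TFCP2L1, a naive-state factor, was at 37.4 ± 1.8 CPM in DNMT1i and 15.2 ± 0.101 CPM in DMSO (SD, n = 3 each), the alkaline phosphatase gene ALPL at 4.96 ± 0.359 and 0.428 ± 0.0334 CPM, and the embryo factor KLF17 had 92 counts in DNMT1i, against 0 in DMSO, at least 28.9-fold higher. SALL4, ALPL and KLF17 were under the filter's cutoff of 0.549 CPM in each DMSO library. They could be tested only because they were higher with DNMT1i, so the list's count and median are a description. In K562, 14 of the list could be tested, 2 were called higher and 2 lower, where 5.72% of all genes tested were called higher and 1.44% lower. The SOX family gene SOX15 led them with 410 counts over the K562 DNMT1i group, against 1 in DMSO, a ratio of 399 (95% counting interval 71.2 to 15800; edgeR adjusted p = 3.51e-07), USP44 rose by 1.89 ± 0.47, and TERT, the telomerase catalytic subunit, and GAL were lower (-0.93 ± 0.24 and -0.60 ± 0.13 on the log2 scale, SE). SOX15 and USP44 were under the K562 cutoff of 0.546 CPM in each DMSO library, so the same limit holds for them. The SOX15 response in K562 exceeded the HCT116 response of the same gene by 5.55 ± 0.97 (SE, edgeR adjusted p = 0.000256).

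Genes of the let-7 pathway were looked at because LIN28B acts on it. Of 32 matched names, 29 could be tested in HCT116, 11 were called higher and 2 lower, beside 23.6% and 15.6% of all genes tested, and the list's median was 0.27 on the log2 scale, where all genes tested had 0.02. The 4 called with the smallest p were PRTG with 319 counts in DNMT1i, against 0 in DMSO (at least 100-fold higher), the known let-7 targets IGF2BP1 (log2 fold change 2.32 ± 0.19) and ARID3B (1.83 ± 0.12), and the processing enzyme DICER1 (1.08 ± 0.08, all SE). PRTG passed the filter through the DNMT1i libraries. Elsewhere in the list the HCT116 ratio of summed CPM was 2.24 for CDC34, 1.75 for CCND1, 1.06 for HMGA2, 0.827 for HMGA1 and 0.756 for DIS3L2. A part of LIN28B or let-7 in these changes was not tested. In K562, where the LIN28B gene count was level, 28 could be tested and 1 was called higher, beside 5.72% of all genes tested. It was IL6, which was at 4.69 ± 0.619 CPM in DNMT1i and 1.2 ± 0.161 CPM in DMSO (SD, n = 3 each). IGF2BP1 was at 316 ± 12.5 CPM in K562 DNMT1i and 364 ± 6.53 CPM in K562 DMSO (SD, n = 3 each) and was not called. The let-7 RNAs themselves are not captured by poly(A) libraries in mature form.

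Genes of zygotic genome activation stood with the members in HCT116. Of 28 matched names, 17 could be tested and all 17 were called higher, beside 23.6% of all genes tested, and the list's median was 8.95 on the log2 scale. They passed the filter largely through the DNMT1i libraries. The list was also chosen with earlier results of these data known, so the count is a description. TRIM43 had 1289 counts in DNMT1i, against 0 in DMSO (at least 405-fold higher), and CCNA1 had 1224, against 0 (at least 385-fold higher). SLC34A2 and RFPL4B had 2107 and 2874 counts in DNMT1i, against 1 count each in DMSO. Several of these genes have near-identical copies, so the assignment of their reads is uncertain. In K562 and in HT-CTCF cells 1 gene of the list could be tested and it was not called.

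In HT-CTCF cells 1 to 2 genes of the early embryo list and 0 to 1 of the let-7 list were called with DNMT1i. Over all genes tested, 1.34% were called higher and 0.158% lower without HaloPROTAC3, and 1.08% higher and 0.875% lower with it. Without HaloPROTAC3, 1 of 18 tested genes of the embryo list was called higher, the trophectoderm and germ cell factor TFAP2C (log2 fold change 0.84 ± 0.18, SE, edgeR adjusted p = 0.00677), and 1 of 27 of the let-7 list was called lower, the cell cycle factor E2F5 (-0.74 ± 0.20, SE, adjusted p = 0.0448). With HaloPROTAC3, TERT (-1.0 ± 0.24, SE, edgeR adjusted p = 0.0127) and the trophectoderm factor CDX2 (-0.65 ± 0.18, SE, adjusted p = 0.0296) were called lower in the embryo list and none of 27 in the let-7 list was called. With dTAG-13, 0 of 14 embryo genes and 3 of 28 let-7 genes were called, where 1.56% of all genes tested were called higher and 3.07% lower. With the replicate block the same 3 let-7 genes and 1 embryo gene, PRDM1, were called, where 5.93% of all genes were called higher and 7.87% lower. The let-7 genes were all lower: the exonuclease gene DIS3L2 (-0.61 ± 0.09, SE, edgeR adjusted p = 0.00659), the microprocessor subunit DGCR8 (-0.39 ± 0.07, SE, adjusted p = 0.0123) and cyclin D1, CCND1 (-0.43 ± 0.11, SE, adjusted p = 0.0489).

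As a description of likeness (Pearson's r) over the 10 group means of log2(CPM + 1), which share libraries and depth within each experiment, the genes most like ZFP42 were MYT1L (r = 0.998), TRIM55 (r = 0.998) and NKX2-5 (r = 0.996), at 7.49, 17.3 and 1.14 CPM in HCT116 DNMT1i. NRIP3 (r = 0.998), the X-inactivation RNA XIST (r = 0.998) and ZNF813 (r = 0.997) were the 3 genes most like LIN28B. NRIP3 was at 15.1 and 17.4 CPM in K562 DNMT1i and DMSO, and at 6.41 and 0.0178 CPM in HCT116 DNMT1i and DMSO. XIST was at 81.6 and 94.4 CPM in K562 DNMT1i and DMSO, and at 21.0 and 0.149 CPM in HCT116 DNMT1i and DMSO. Most like DPPA2 were SFRP1 (r = 0.999), TFEC and BMPR1B, most like DPPA4 were SPATA31A3 (r = 0.999), NID2 and TRIM43, and most like L1TD1 were LINC03020, GJA1 (r = 0.999) and ALPG. TRIML2 had lower values, with LYPD3 (r = 0.987), SIX2 (r = 0.982) and ZNF703 (r = 0.98).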

How the data were processed

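Poly(A) RNA-seq gene counts of 30 libraries were analysed, and exon bin counts of the 18 wild-type and degron K562 libraries; HT-CTCF bins were not analysed here. The authors extracted UMIs and removed duplicates with UMI-tools 1.1.1, trimmed adapters with cutadapt 2.7, aligned to hg38 with STAR 2.6.0, and deposited raw counts per gene (HTSeq) and per exon bin, without normalization (tools per the submitters' processing notes). Deduplication removes amplification copies, and counting intervals cover counting error only. Reads not assigned to a gene (17.093% to 23.592%) were left out. No source at hand stated the strand setting. The deposited tables of comparisons (fold changes, p-values) were not used except for bin positions, nor were 18 columns of per-sample values.

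Counts were tested with edgeR 4.0.16 (TMM, filterByExpr, quasi-likelihood) in R 4.3.3. Wild-type and degron K562 comparisons were fitted on their own 6 libraries, the 4 HT-CTCF groups together, and the differences between lines or days on 12 libraries. Calls followed the study's limits: adjusted p below 0.05 and log2 fold change beyond 0.5 (0.25 for dTAG-13; none for differences of responses or between lines). Where a control group had 0 counts, folds are bounds against 3 counts over the group, and with 1 to 3 counts they are ratios with 95% counting intervals. Scripts were tested on simulated data. Alternatives were DESeq2 1.42.0, its size factors, no filter, no size limit, the replicate number as a block, fewer groups, and each replicate left out.

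The 10 members and the lists were chosen with earlier results of these data known. Each member is named, though not in every comparison. Of each list up to 4 genes with the smallest p among those called are taken per comparison, and of these a selection is named; SOX2-OT, TRIML1, the nearest protein-coding gene on each side, and 3 genes of like pattern for each member of at least 1 CPM were added. A few of these are left unnamed. LIN28B-AS1 was named after its values were seen. The study's RNA-seq methods state 3 separate cultures and name the HT-CTCF and degron K562 experiments, and the labels give only a replicate number. In the degron K562 experiment same-numbered libraries deviated together in part (correlations of 0.14, 0.342 and 0.649), so the block is given there. The dTAG-13 replicate 1 was closer to DMSO replicate 2 (0.496) than to DMSO replicate 1.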

Additional observations from a re-analysis of the deposited data

Results flagged for a closer look

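The DNMT1i response of 5 members was called lower in K562 than in HCT116, where 15.7% of 17237 genes were called lower. The differences (log2, K562 minus HCT116, ± SE, edgeR) were -10.07 ± 1.43 for ZFP42, -13.36 ± 1.96 for L1TD1, -9.01 ± 2.08 for DPPA2, -6.35 ± 0.24 for LIN28B and -4.89 ± 1.37 for TRIML2. ZFP42, L1TD1 and DPPA2 entered this fit through the HCT116 DNMT1i libraries and TRIML2 through the HCT116 libraries, so how many members were called is no result. The estimates of ZFP42, L1TD1, DPPA2 and TRIML2 rest on K562 groups with at most 7 counts and are no measure of size. The DPPA2 call was lost without K562 DMSO replicate 1 (-6.31, adjusted p = 1) and the TRIML2 call without K562 DMSO replicate 3 (-3.97, adjusted p = 0.168).

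The TRIML2 response of HCT116 cells at 3 days exceeded that of HT-CTCF cells at 1 day without HaloPROTAC3 by 3.47 ± 0.25 (log2, SE, edgeR adjusted p = 2.33e-11). Day, knock-in and experiment cannot be told apart.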

How the results depend on the processing

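Of 448 values of member log2 fold changes under alternatives, 429 kept their direction and their side of the threshold, 14 were no longer past it, 5 newly passed it and 0 reversed in a called value. In HCT116 at 3 days 6 to 7 members were called under the alternatives, with LIN28A added without the filter and in 4 fits that left out a replicate (DNMT1i replicate 3, or DMSO replicate 1, 2 or 3; adjusted p between 0.00427 and 0.0366). With HaloPROTAC3, 2 members were called for DNMT1i, 4 without the filter (LIN28B and L1TD1 added) and 1 by DESeq2, which gave ZFP42 no adjusted p. For HaloPROTAC3 in DMSO 1 member, TRIML2, was called, and 0 without the filter, with the replicate block, by DESeq2 and with only the groups of the contrast, and 0 to 1 with each replicate left out; under DNMT1i 0 to 1 were called with each replicate left out. For the 3 day against 1 day responses 1 member was called, and 5 by DESeq2, of which all but TRIML2 had 0 to 2 counts in each DMSO library. DPPA4 in the difference between lines was called by DESeq2 alone (-8.00, adjusted p = 0.00112), with 0 counts in every DMSO library.

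Replicate numbers did not pair the samples outside the degron K562 experiment. Of 15 same-numbered pairs, that experiment's included, 5 had a correlation over 0.1. Outside it only replicate 1 of K562 (0.384) and of HCT116 (0.145) did. The replicate block changed no other call of a member than TRIML2 under HaloPROTAC3 in DMSO (adjusted p = 0.0581). Counts over all genes moved most for the HT-CTCF interaction, with 7 higher and 27 lower, against 24 and 141 without the filter and 60 and 83 by DESeq2. With HaloPROTAC3 the DNMT1i response had 137 higher and 111 lower, against 62 and 68 by DESeq2. In K562 it had 785 higher and 197 lower, against 1184 and 304 without the filter, and speckle depletion had 220 higher, against 509 without it. Depth limited the HT-CTCF libraries most, where LIN28B, L1TD1 and DPPA2, at 1 to 9 counts per DNMT1i library, did not pass the filter.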
